A study of Mus musculus with 8 samples.

Results

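*Nppa*, *Nppb*, *Gja1*, *Gja5* and *Gjc1* are 5 of the 14608 genes measured by RNA-seq in the embryonic mouse outflow tract (OFT), the vessel-like segment through which the ventricles empty and in which the semilunar valves form. The 5 genes were picked by name, with earlier results of the same control and mutant comparison known, so their levels in the groups are given as a description and were not tested. The 8 libraries were made from polyA RNA of OFT at embryonic day (E) 11.5, and 4 carry the genotype label Control while 4 carry Mib1V943F/+ Gata6STOP/+. The second group is heterozygous for a missense allele of *Mib1*, which encodes a ubiquitin ligase that Notch ligands need for signalling, and for a stop allele of *Gata6*, which encodes a zinc finger transcription factor of the heart. The study asked how the *Mib1* allele changes valve and septum defects caused by loss of 1 *Gata6* copy. The label of the first group gives no genotype beyond Control, no strain is given, and libraries with 1 of the alleles alone were not analysed here. The labels name no Cre driver or cell type for either allele. They describe each library as a pool of 3 individuals, where the methods give 3 pools of 4 pairs of OFT.

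The natriuretic peptides ANP and BNP, encoded by *Nppa* and *Nppb*, are secreted by heart muscle and act through membrane guanylate cyclases. In the embryo their genes are marks of working chamber myocardium, the trabeculated muscle that balloons out from the heart tube, while the OFT and the atrioventricular canal keep a primary myocardium with little of either. Connexins assemble into gap junction channels that pass current between neighbouring cells. Connexin 40 (*Gja5*) marks chamber and conduction myocardium and arterial endothelium, connexin 43 (*Gja1*) is the main connexin of working muscle and is also made by mesenchyme and neural crest derivatives, and connexin 45 (*Gjc1*) is the early connexin of the whole heart tube and of slowly conducting tissue.

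*Nppa* (ENSMUSG00000041616) lies on the plus strand of GRCm38 at chr4:148000722-148002079, and *Nppb* (ENSMUSG00000029019) lies upstream of it on the same strand at chr4:147985788-147987205, with 13516 bp between them. *Gja1* (ENSMUSG00000050953) is at chr10:56377330-56402513 and *Gja5* (ENSMUSG00000057123) at chr3:96904693-97077416, both on the plus strand. *Gjc1* (ENSMUSG00000034520) is at chr11:102799579-102819700 on the minus strand. RefSeq promoter windows on GRCm38.p6, from 250 bases before to 50 after the start site, were found for 4 of the 5 genes, the exception being *Gjc1*. The 250 bases before the start site are shown 5′ to 3′ for both peptide genes, because their levels varied together, and for *Gja1*, the connexin whose groups did not overlap. They cover chr4:148000472-148000721, chr4:147985650-147985899 and chr10:56377050-56377299, all on the plus strand, and capitals mark matches to the 6 motifs searched.
Nppa: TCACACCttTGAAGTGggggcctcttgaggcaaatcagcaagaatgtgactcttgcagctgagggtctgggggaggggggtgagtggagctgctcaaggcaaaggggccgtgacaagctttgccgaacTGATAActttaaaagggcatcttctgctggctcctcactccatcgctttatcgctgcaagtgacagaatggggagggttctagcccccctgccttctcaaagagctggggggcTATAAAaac
Nppb: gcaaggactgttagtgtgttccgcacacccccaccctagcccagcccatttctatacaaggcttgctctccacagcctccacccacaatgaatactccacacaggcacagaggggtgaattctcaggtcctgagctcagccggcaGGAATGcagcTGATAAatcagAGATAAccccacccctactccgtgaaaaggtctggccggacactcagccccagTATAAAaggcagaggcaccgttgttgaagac
Gja1: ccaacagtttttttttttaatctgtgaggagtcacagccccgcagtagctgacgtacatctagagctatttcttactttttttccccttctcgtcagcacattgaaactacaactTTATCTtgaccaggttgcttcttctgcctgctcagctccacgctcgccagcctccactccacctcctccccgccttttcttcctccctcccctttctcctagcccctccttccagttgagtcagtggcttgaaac

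The motifs were searched on both strands of the 300-base windows, and their shares are over 32544 distinct windows of the same length. Positions give the first base of a match relative to the start site, with -1 as the last base printed. The word for GATA factors was AGATAA, allowed also with T as its first base, G as its last base or both, and 29.6% of windows hold it. *Nppa* has 1 such match at -122, *Nppb* has 2 at -95 and -84, and *Gja1* has 1 on the opposite strand at -135. The T-box word GGTGTGA, found in 3.95% of windows, occurs once in the *Nppa* window, on the opposite strand at -250, and the NK2 homeodomain word TNAAGTG (11.5% of windows) occurs once there, at -241. The word CATTCC of TEAD factors (14.6%) occurs once in the *Nppb* window, on the opposite strand at -105. The TATA box word TATAAA (13.6%) occurs once in each peptide gene window, at -9 and -31, and in neither connexin window, and the word TGGGAA of RBPJ, the DNA-binding partner of Notch (25.4%), occurs in none of the 4. The *Gja5* window, chr3:97032152-97032451, holds no match to any of the 6. The RefSeq starts of *Gja5* and *Nppb* lie inside the Ensembl spans of these genes. All marked *Nppb* matches lie downstream of its Ensembl start. None of the printed matches overlaps another, and a match describes letters and not binding.

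All values of the 5 genes stood far above 1 read. Reads on listed genes ran from 10669420 in control replicate 2 to 30469165 in mutant-labelled replicate 3, and 1 read equals 0.0948 CPM (reads scaled by the authors to a common library size) in the first and 0.0325 to 0.0467 CPM in the other libraries, while the lowest value of any of the 5 genes was 5.67 CPM. The RNA of neither mutated gene separated the groups. *Gata6* measured 262 ± 18.5 CPM (SD, n = 4) in controls and 249 ± 36.1 in mutant-labelled libraries (log2 difference -0.08, SE 0.10, limma adjusted p = 0.752), and *Mib1* 122 ± 15.6 and 128 ± 6.62 (0.07, SE 0.09, limma adjusted p = 0.746), so the groups are known from the labels alone. By quantitative PCR, the paper reports *Gata6* mRNA in this genotype at the reduced level it predicted, a reduction that these RNA-seq values do not show. Across all 14608 genes limma called 0 at an adjusted p under 0.05, and 1763 (12.1%) had an unadjusted p under 0.05. For the same comparison the paper reports differentially expressed genes in both directions, from a generalized linear model in edgeR. Count tests were not run here, so the 0 holds for limma on log2 CPM only. The same limit applies to the adjusted p values of single genes and gene lists below. The median log2 difference over all genes was 0.001.

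*Nppa* measured 157, 99.1, 122 and 65.9 CPM in control replicates 1 to 4 and 61.9, 5.67, 8.68 and 109 CPM in mutant-labelled replicates 1 to 4. The mutant-labelled libraries did not form 1 cluster: replicate 4 lay among the controls, replicate 1 just below the lowest control, and replicates 2 and 3 far below every other library, so the groups overlapped. The means were 111 ± 38.5 and 46.2 ± 49.0 CPM (SD, n = 4 in each), and the fitted log2 difference, mutant minus control on the log2(CPM + 0.5) scale, was -2.09 with an SE of 0.74. The highest mutant-labelled value was 19.2 times the lowest, against 2.39 times in controls. The SD of log2 values in the mutant-labelled group was 2.04, the 6th largest of the 14608 genes, where the median gene had 0.143. In controls the SD of *Nppa* was 0.53, rank 353, against a median of 0.136. When the lowest library of the mutant-labelled group, replicate 2, was left out, the log2 difference was -1.42, and when the highest, replicate 4, was left out it was -2.81.

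*Nppb* measured 52.3, 31.8, 37.6 and 24.0 CPM in the controls and 21.9, 9.71, 7.77 and 26.8 CPM in the mutant-labelled libraries. The order of the controls was that of *Nppa*, with replicate 1 highest and replicate 4 lowest, and mutant-labelled replicate 4 again lay among the controls while replicates 2 and 3 were lowest. The means were 36.4 ± 11.97 and 16.5 ± 9.27 CPM (SD, n = 4), a log2 difference of -1.24 (SE 0.35). The spread in the mutant-labelled group, a log2 SD of 0.84, ranked 81 of 14608, and the highest value was 3.45 times the lowest against 2.18 times in controls. Leaving out single libraries moved the log2 difference between -1.52 and -0.95.

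**Figure D1:**
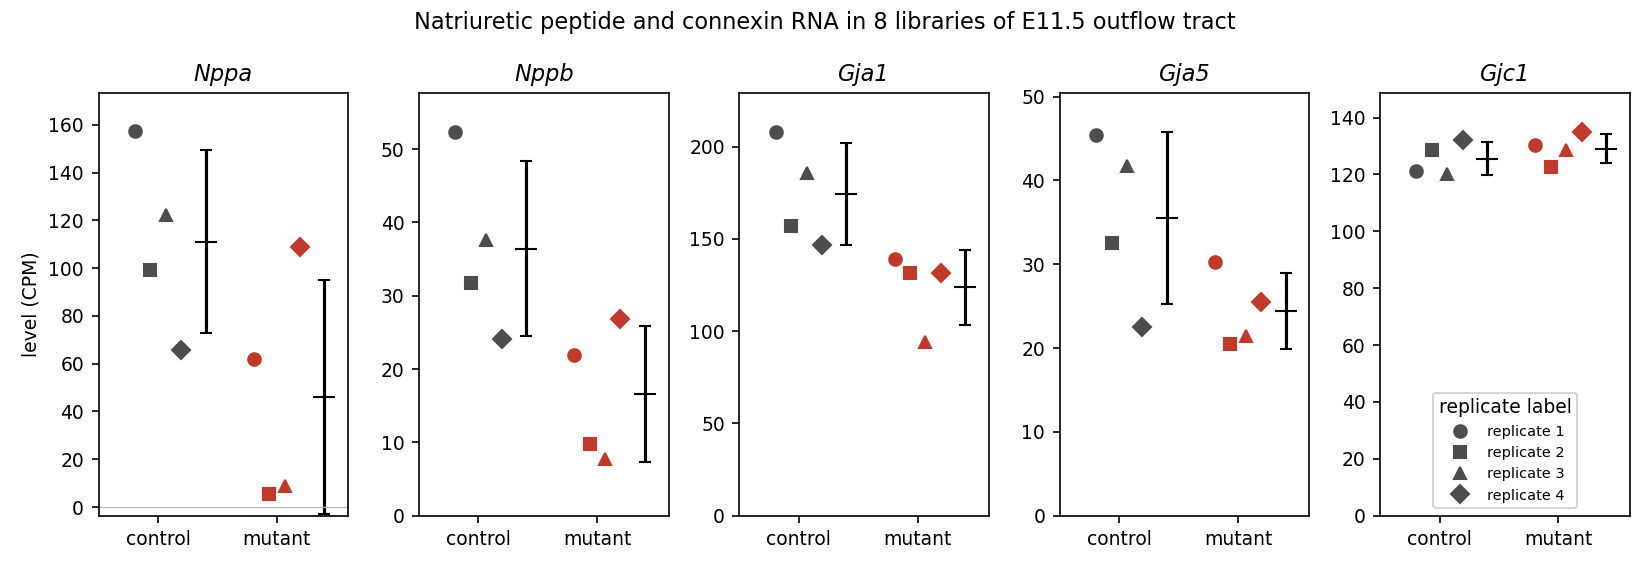
Level in CPM of each gene in every library, grey for control and red for mutant-labelled, with a separate linear axis per gene; symbols give the replicate label, and the bars give the mean and SD of 4 libraries. *Nppa* and *Nppb* are lowest in mutant-labelled replicates 2 and 3, only *Gja1* has groups that do not overlap, and *Gjc1* lies between 120 and 135 CPM in all 8 libraries.

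The ratio of *Nppa* to *Nppb* in CPM was 3.01, 3.12, 3.25 and 2.74 in the 4 controls. It was 2.83, 0.583, 1.12 and 4.05 in the mutant-labelled libraries. The control ratio varied little (3.03 ± 0.217, SD, n = 4), while in the mutant-labelled group (2.15 ± 1.59) the 2 libraries lowest in both peptides had the lowest ratios, so *Nppa* was the lower of the pair relative to its control level there. *Nppa* exceeded *Nppb* in 7 of 8 libraries by CPM, and mutant-labelled replicate 2 was the exception.

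*Gja1*, the connexin 43 gene, measured 208, 157, 186 and 147 CPM in controls and 139, 131, 93.9 and 131 CPM in mutant-labelled libraries. Every mutant-labelled library lay below every control, though the gap between the nearest pair, 147 and 139 CPM, was small beside the spread within groups. The means were 174 ± 27.8 and 124 ± 20.3 CPM (SD, n = 4), and the log2 difference was -0.49 (SE 0.13), or -0.37 without mutant-labelled replicate 3. *Gja1* was the only 1 of the 5 whose groups did not overlap. Over all genes, 3.9% had every mutant-labelled library below every control, 3.2% had every one above, and 7.1% had groups apart in either direction, and nothing is read from the count of 1 in 5, since this contrast was known when the genes were picked.

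*Gja5*, the connexin 40 gene, measured 45.4, 32.5, 41.8 and 22.5 CPM in controls and 30.3, 20.5, 21.4 and 25.5 CPM in mutant-labelled libraries. Control replicates 1, 2 and 3 lay above every mutant-labelled library, while control replicate 4 fell inside the mutant-labelled range. The means were 35.5 ± 10.2 and 24.4 ± 4.48 CPM (SD, n = 4), a log2 difference of -0.50 (SE 0.19). Leaving out control replicate 4 gave -0.70 and leaving out control replicate 1 gave -0.37. The controls followed the order seen for both peptides, with replicate 1 highest, then replicates 3, 2 and 4, and *Gja1* had the same order.

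*Gjc1*, the connexin 45 gene, measured 121, 129, 120 and 132 CPM in controls and 130, 123, 129 and 135 CPM in mutant-labelled libraries. The groups overlapped almost wholly, with means of 126 ± 5.79 and 129 ± 5.11 CPM (SD, n = 4) and a log2 difference of 0.04 (SE 0.06). The highest value over all 8 libraries was 1.12 times the lowest. The log2 SD of *Gjc1* ranked 12726 in controls and 13245 in the mutant-labelled group, where rank 14608 is the smallest, so this gene varied less between libraries than most. The ratio of *Gja1* to *Gjc1* was 1.40 ± 0.281 in controls and 0.960 ± 0.160 in mutant-labelled libraries, while the ratio of *Gja1* to *Gja5* was 5.09 ± 0.964 and 5.13 ± 0.908 (SD, n = 4).

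For levels between genes, CPM was divided by the length of the merged exons of each gene, from 0.781 kb for *Nppb* to 10.257 kb for *Gja1*. In controls *Nppa* was highest at 128.5 ± 44.5 CPM per kb (SD, n = 4), followed by *Nppb* at 46.6 ± 15.3. *Gjc1* came next at 25.1 ± 1.16, then *Gja1* at 17.0 ± 2.71 and *Gja5* at 6.19 ± 1.78. No neighbours in this order overlapped in controls. In the mutant-labelled libraries the ranges of *Nppa* (6.55 to 125.6 CPM per kb), *Nppb* (9.95 to 34.3) and *Gjc1* (24.5 to 27.0) overlapped, while *Gja1* (9.16 to 13.5) and *Gja5* (3.57 to 5.27) kept apart from each other and from *Gjc1*. In mutant-labelled replicates 2 and 3 the connexin 45 gene therefore stood above both peptide genes per kb of exon.

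In bulk tissue, fewer cells of a type and less RNA per cell cannot be told apart. The dissected tissue held abundant heart muscle RNA: all 14 cardiomyocyte markers were detected, and their summed level was 20305 to 24019 CPM in controls and 16541 to 19225 CPM in mutant-labelled libraries. These ranges did not overlap, 14 of 14 markers had a lower mean in the mutant-labelled group, 13 had an unadjusted limma p under 0.05 and 0 an adjusted p under 0.05, with a median log2 difference of -0.33. Over all genes, 6.62% were lower at that unadjusted threshold. Their part in the levels of the 5 genes was not tested. Set against the mean log2 level of these markers in each library, the log2 differences were -1.78 for *Nppa*, -0.93 for *Nppb*, -0.18 for *Gja1*, -0.19 for *Gja5* and 0.35 for *Gjc1*. That scaling moves the median of all genes to a log2 difference of 0.3127, so the direction of any gene within that distance below 0 turns with it. The mean log2 marker level of the mutant-labelled libraries lay 0.335, 0.375, 0.313 and 0.223 below the control mean in replicates 1 to 4.

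Markers of chamber muscle were compared next, since *Nppa*, *Nppb* and *Gja5* are genes of that tissue. Of 6 markers of trabecular and chamber myocardium, 6 had a lower mean and 5 an unadjusted p under 0.05 in limma (among them *Smpx*, *Bmp10*, *Irx3* and *Cited1*), 0 passed adjustment, and the median log2 difference was -0.996. Their summed level was 487, 363, 402 and 274 CPM in controls and 264, 113, 127 and 293 CPM in mutant-labelled libraries, so replicates 2 and 3 were again the lowest and replicate 4 lay within the controls. For 6 ventricular markers the sums were 12602 to 14538 and 9755 to 11442 CPM, with 4 lower at an unadjusted p under 0.05 and a median of -0.38. The 7 atrial markers summed to 116 to 158 and 109 to 141 CPM, 1 was higher at an unadjusted p under 0.05 (*Nr2f1*) and the median was -0.13. The 12 markers of nonchamber myocardium in the table, the type that the OFT keeps, summed to 581 to 669 and 681 to 789 CPM, with 3 higher at an unadjusted p under 0.05 (*Rspo3*, *Cacna1g* and *Isl1*) and a median of 0.08. Over all genes the background at that threshold was 6.62% lower and 5.45% higher (967 and 796 genes), and with column totals set equal in place of the scaling by the authors it was 740 lower and 1161 higher, so the balance between the directions turns with the scaling. The part of these lists in the levels of the 5 genes was not tested.

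Markers of other cells that express connexins or could enter the dissection were compared in the same way. The 7 arterial endothelium markers, which include the connexin 37 gene *Gja4*, summed to 615 to 694 CPM in controls and 550 to 741 CPM in mutant-labelled libraries (median log2 difference 0.15, 1 lower at an unadjusted p under 0.05, *Dll4*). The 9 markers of endothelium and endocardium summed to 838 to 1003 and 862 to 931 CPM (median -0.08, 1 lower, *Emcn*), and the 7 of cushion mesenchyme to 3018 to 3309 and 2793 to 3895 CPM (median 0.05, 0 lower or higher). Smooth muscle (median 0.02), epicardium (0.10), neural crest and glia (0.11), macrophages (0.02) and erythroid cells (0.25) held no gene past an adjusted p of 0.05, and neither did the 4 second heart field genes in the table (0.41, with *Isl1* and *Tbx1* higher at an unadjusted p under 0.05). Of the smooth muscle genes, *Myh11* was higher and *Des* lower at an unadjusted limma p under 0.05. The epicardium, neural crest and glia, macrophage and erythroid lists held 0 genes at that threshold. Mutant-labelled replicate 2, the library lowest in *Nppa*, stood apart in several of these lists. Its epicardium sum was 559 CPM against 324 to 443 CPM in the other 7 libraries, its macrophage sum 60.01 against at most 48.8 CPM, and its neural crest and glia sum 64.8 against at least 89.8 CPM. Without this library the log2 difference of *Nppa* was -1.42, as above, and that of *Nppb* -1.05, and the part of these markers in either was not tested. The erythroid sum was 4297, 4928, 2765 and 1391 CPM in mutant-labelled replicates 1 to 4 against 1632 to 3326 CPM in controls, and its part in the spread of *Nppa* was not tested.

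**Figure D2:**
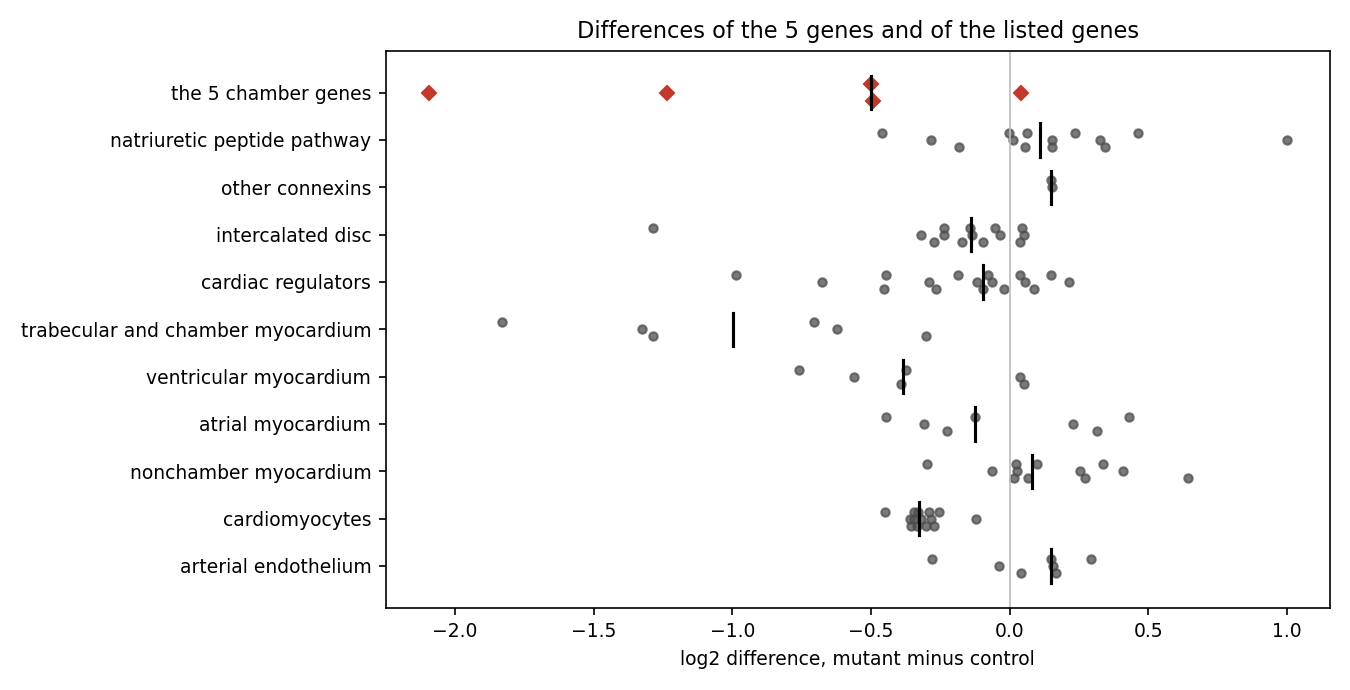
Log2 difference, mutant minus control, of the 5 genes (red diamonds) and of each gene of the listed groups (grey points), with a black bar at the median of each row. The trabecular and chamber markers have a median of -0.996 and the 14 cardiomyocyte markers gather near -0.33, between *Gjc1* at 0.04 and *Gja1* at -0.49.

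Which genes had profiles most like each of the 5 was measured as the root mean square (RMS) difference of log2 deviations from the group means over the 8 libraries, among the 11651 genes that averaged 5 CPM or more. The profiles share libraries and depth, and no test was made. *Bmp10*, which encodes a secreted factor of trabecular muscle, was nearest to *Nppa* at an RMS difference of 0.411, where the deviations of *Nppa* itself had an RMS of 1.29. *Gm10800*, a predicted gene, followed at 0.646 and *Cited1*, a transcriptional coregulator gene, at 0.692. *Gm10800* averaged 5.011 CPM, close to the 5 CPM limit, and measured only 0.184 CPM in mutant-labelled replicate 2 and 0.455 in replicate 3. *Bmp10* measured 86.8, 42.4, 49.3 and 33.6 CPM in controls and 25.1, 3.13, 9.10 and 44.1 CPM in mutant-labelled libraries (log2 difference -1.83, SE 0.60, limma adjusted p = 0.308). It shared with *Nppa* the high value of mutant-labelled replicate 4 and the low values of replicates 2 and 3, and the ratio of *Nppa* to *Bmp10* was 2.15 ± 0.312 in controls and 1.92 ± 0.715 in mutant-labelled libraries (SD, n = 4).

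The nearest profiles to *Nppb* included those of *Cited1* (RMS difference 0.221) and *Irx5* (0.223), where *Nppb* itself had an RMS of 0.588. *Cited1* measured 149 ± 42.0 CPM in controls and 67.3 ± 41.7 in mutant-labelled libraries (SD, n = 4; log2 difference -1.33, SE 0.39, limma adjusted p = 0.270). *Irx5*, a homeobox gene of ventricular muscle, measured 11.2 ± 2.68 and 5.69 ± 2.64 CPM (-0.99, SE 0.28, limma adjusted p = 0.258). Both are lowest in mutant-labelled replicates 2 and 3, where *Nppb* was lowest.

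The connexins did not share these neighbours. For *Gja5* the nearest were *Ccdc3* (0.128), the predicted gene *Gm15428* (0.142) and *Ednrb*, an endothelin receptor gene (0.153). For *Gja1* they were 3 predicted genes, *Gm10778* (0.053), *Gm42047* (0.068) and *Gm47761* (0.093), and for *Gjc1*, whose own deviations had an RMS of 0.054, they included *Tpx2* (0.020) and *Rell1* (0.023). When deviations were taken from the mean of all 8 libraries instead, *Bmp10*, *Gm10800* and *Cited1* remained the 3 nearest to *Nppa*, and *Cited1* and *Irx5* remained among the 3 nearest to *Nppb*. *Ccdc3* was the only 1 of the 3 to remain for *Gja5*, *Tpx2* and *Rell1* did not remain for *Gjc1*, and no gene remained for *Gja1*.

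**Figure D3:**
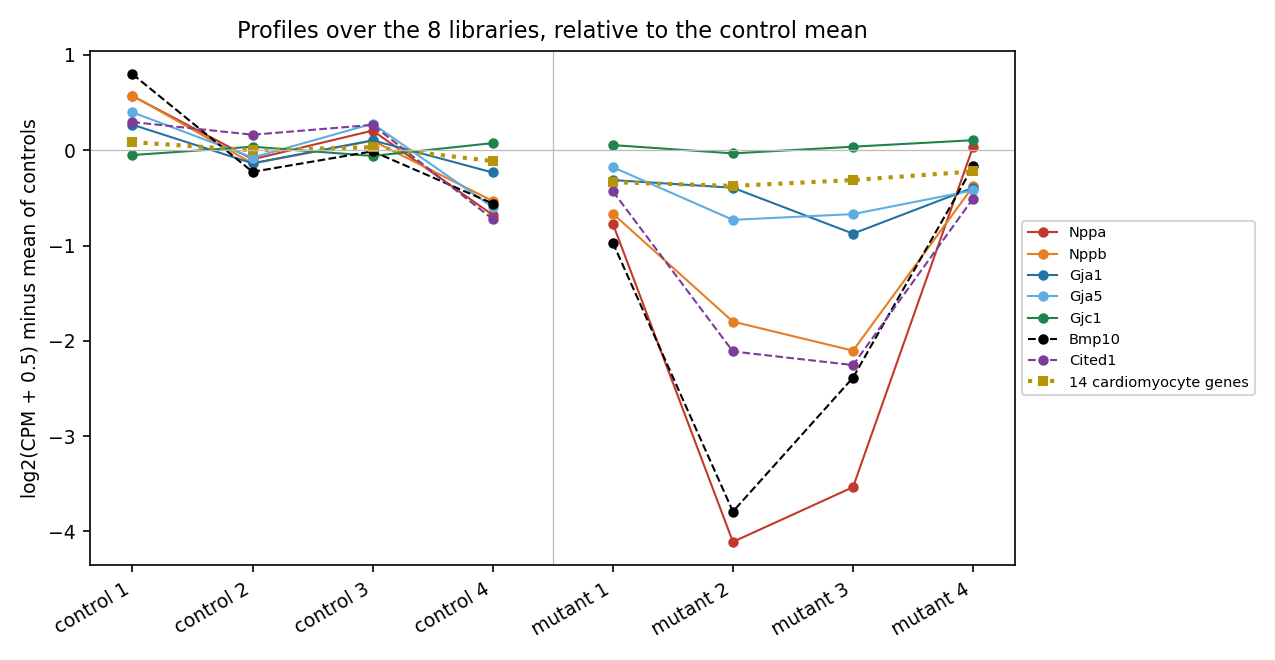
Log2(CPM + 0.5) of each gene in the 8 libraries minus its mean over the controls, with the mean of 14 cardiomyocyte markers as squares; lines link the points of 1 gene and carry no order in time. *Nppa* and *Bmp10* lie furthest below their control means in mutant-labelled replicates 2 and 3, while *Gjc1* stays near 0 and the cardiomyocyte markers lie 0.223 to 0.375 below theirs in all 4 mutant-labelled libraries.

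*Nppa* and *Nppb* are neighbours, so the genes around them were compared. Of the other 8 genes of the table within 100 kb of *Nppa*, 0 passed an adjusted p of 0.05 in limma. *Mfn2*, *Plod1* and *2510039O18Rik*, on the *Nppb* side, had log2 differences of -0.26, -0.08 and -0.17. *Clcn6*, on the far side of *Nppa*, had -0.01 with an SE of 0.07. *Agtrap*, which encodes a protein that binds the angiotensin receptor, measured 26.5 ± 1.94 CPM in controls and 19.6 ± 3.49 in mutant-labelled libraries (-0.44, SE 0.13, limma adjusted p = 0.258) without overlap, as did 3.9% of all genes in that direction. *Draxin* had -0.23 (SE 0.26). *Gm13054*, an antisense gene whose span overlaps *Nppa* on the opposite strand, measured 1.47 ± 0.338 and 0.675 ± 0.574 CPM (-0.87, SE 0.33, limma adjusted p = 0.364). The strand setting of the counting is not given in the sources used here, so reads of *Gm13054* and *Nppa* may not be separate, although *Gm13054* is small beside *Nppa*.

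**Figure D4:**
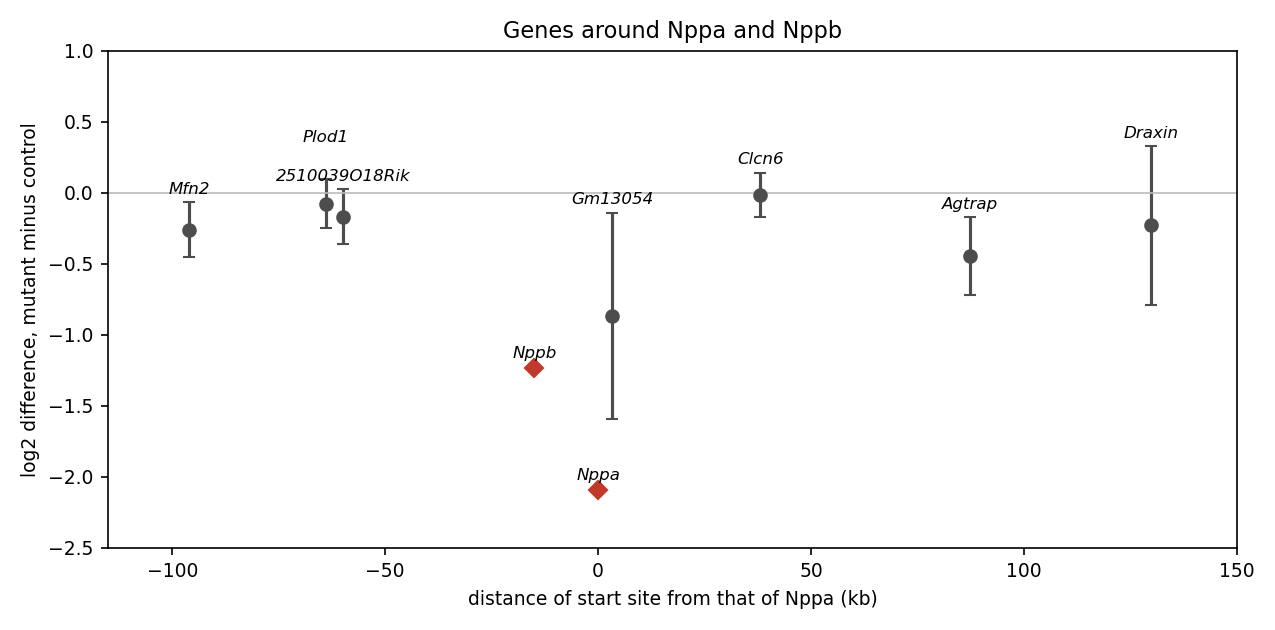
Log2 difference, mutant minus control, of *Nppa* and 8 named genes of the table within 100 kb of it, against the distance of their start sites from that of *Nppa* in kb. Red diamonds are *Nppa* and *Nppb*, at -2.09 and -1.24, and grey points with 95% intervals of the fit are the other genes, which lie between -0.87 (*Gm13054*) and -0.01 (*Clcn6*).

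The span of *Gja5* overlaps *Gpr89* at its 5′ end, and *Gpr89* had a log2 difference of -0.02 (SE 0.09). Near *Gjc1*, *Adam11* had -0.30 (SE 0.09, limma adjusted p = 0.270) and *Eftud2* 0.01 (SE 0.06). No other gene of the table lies within 100 kb of *Gja1*.

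The rest of the natriuretic peptide pathway was measured through 14 of the 15 genes of a list, *Nppc* being the 1 not in the table. None passed an adjusted p of 0.05 in limma, 3 were higher and 2 lower at an unadjusted p under 0.05, 10 had a higher and 4 a lower mean, and the median log2 difference was 0.11. At that unadjusted threshold, 5.45% of all genes were higher and 6.62% lower. Among the receptors, *Npr1*, the guanylate cyclase that binds both peptides, measured 25.8 ± 2.11 CPM in controls and 28.7 ± 1.79 in mutant-labelled libraries (0.15, SE 0.08, limma adjusted p = 0.4735). *Npr2*, the receptor of the C-type peptide, had 0.06 (SE 0.07). *Npr3*, the clearance receptor, measured 83.7 ± 19.6 and 61.4 ± 17.7 CPM (-0.46, SE 0.19, limma adjusted p = 0.380), and its groups overlapped.

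Of the proteases that mature the peptides, *Corin*, which cleaves pro-ANP, measured 84.0 ± 6.34 and 84.1 ± 10.6 CPM in the control and mutant-labelled groups, so the enzyme gene did not share the spread of its substrate. *Furin*, which cleaves pro-BNP, measured 238 ± 22.9 and 212 ± 38.2 CPM (-0.18, SE 0.12), and *Pcsk6*, which activates corin, 53.3 ± 4.98 and 43.6 ± 2.41 CPM without overlap (-0.28, SE 0.08, limma adjusted p = 0.258). Groups lay apart in that direction for 3.9% of all genes. The degrading enzymes *Mme* and *Ide* had log2 differences of 0.06 (SE 0.10) and 0.15 (SE 0.15). Downstream of cyclic GMP, the kinase genes *Prkg1* and *Prkg2* had 0.01 (SE 0.11) and 0.34 (SE 0.21).

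The 4 phosphodiesterase genes of the list all had higher means in the mutant-labelled group, where the median log2 difference over all genes was 0.001. *Pde9a* measured 7.82 ± 1.002 and 10.9 ± 0.346 CPM (0.46, SE 0.11, limma adjusted p = 0.222) and *Pde5a* 18.8 ± 0.828 and 23.7 ± 2.36 CPM (0.33, SE 0.09, limma adjusted p = 0.254), both without overlap between groups. Every mutant-labelled library lay above every control for 3.2% of all genes. *Pde3a* measured 123 ± 6.50 and 146 ± 19.6 CPM (0.24, SE 0.09, limma adjusted p = 0.360), and *Pde2a*, at 2.46 ± 2.59 and 3.52 ± 1.22 CPM, had 0.999 with an SE of 0.62. The *Pde2a* controls were split, at 0.288, 4.46, 4.92 and 0.154 CPM, against 4.72, 4.05, 1.85 and 3.47 CPM in mutant-labelled libraries.

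Of 17 other connexin genes listed, 2 were in the table. *Gja4* measured 31.7 ± 2.48 CPM in controls and 35.3 ± 4.05 in mutant-labelled libraries (0.15, 95% interval -0.06 to 0.36, limma adjusted p = 0.537), and *Gja3* 8.94 ± 0.858 and 10.1 ± 1.53 CPM (0.15, 95% interval -0.12 to 0.43, limma adjusted p = 0.620). The intercalated disc, the junction where connexin 43 plaques sit, was represented by 14 of 15 listed genes, of which 0 passed adjustment, 6 were lower at an unadjusted p under 0.05 (among them *Cdh2*, *Dsp*, *Pkp2*, *Xirp1* and *Cav3*), 11 had a lower mean and the median log2 difference was -0.14. The share of all genes lower at that unadjusted threshold was 6.62%. *Dsp*, the desmoplakin gene, measured 759 ± 66.6 and 643 ± 37.6 CPM (-0.24, SE 0.08, limma adjusted p = 0.310).

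Of 17 cardiac regulator genes, including factors known to act at the *Nppa* and *Gja5* promoters, 0 passed adjustment, 6 were lower and 0 higher at an unadjusted p under 0.05, and the median log2 difference was -0.10. Across all genes, 6.62% were lower and 5.45% higher at that unadjusted threshold. *Nkx2-5*, a homeobox factor gene, measured 107 ± 16.9 CPM in controls and 78.0 ± 8.55 in mutant-labelled libraries without overlap (-0.45, SE 0.11, limma adjusted p = 0.228). *Hopx*, which encodes a homeodomain protein of heart muscle, measured 63.6 ± 5.94 and 39.9 ± 6.88 CPM, also without overlap (-0.68, SE 0.12, limma adjusted p = 0.124, the smallest of the table but not held by *Hopx* alone). Both were named after their values were seen, and 3.9% of all genes had every mutant-labelled library below every control. The lists for the pathway, the junction and the regulators were typed with earlier results of these data known.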

How the data were processed

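PolyA RNA of OFT was sequenced in 8 libraries, grouped by their labels (4 control, 4 mutant), and all entered every comparison. The authors trimmed 60 bp reads with cutadapt, quantified them with RSEM on GRCm38, kept genes with at least 1 CPM in at least 3 samples, and deposited CPM normalized by the TMM method of edgeR. Every column was used (0 left out). Of 14608 genes, 13 had no symbol, 17 shared one, and 14594 identifiers matched GENCODE M21. Members and lists were chosen with earlier results of these data known. Here limma 3.58.1 on R 4.3.3 was fitted to log2(CPM + 0.5) over all genes (lmFit, eBayes with trend, two-sided, Benjamini-Hochberg, threshold 0.05) and tested on simulated data. Intervals cover the spread between libraries, and nothing says that these were separate litters, so part of it may be technical. Named genes are the 5, *Gata6*, *Mib1*, the pathway and connexin lists and the 3 nearest profiles of each of the 5. A further clause of that rule, for other lists, rests on a count test that was not run, so other listed genes and the neighbours were named after their values were seen. A few genes that the rule or the lists selected are not reported here. Promoter windows are from RefSeq, GRCm38.p6. The labels give no batch or date. Alternatives were other pseudocounts, scalings, filters and variance models, a replicate block and leaving out each library. Reads per library were taken from the step of the CPM values, to within 0.001 reads. Same-numbered libraries were checked for shared deviations.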

Additional observations from a re-analysis of the deposited data

Results flagged for a closer look

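In groups of 4 libraries, the gap between the highest or lowest value and its nearest neighbour was taken as a share of the whole range and set against the 95% critical value of Dixon. Of 46 groups, for 23 genes, 5 passed, and chance alone passes about 1 in 20 groups. *Gja1* measured 93.9 CPM in mutant-labelled replicate 3, set apart below the other 3 libraries of its group by 0.831 of the range. *Npr3* measured 113 CPM in control replicate 1, set apart above the other controls by 0.880 of the range. *Corin* measured 93.4 CPM in control replicate 1, again the highest control, by 0.874 of the range. *Furin* measured 273 CPM in control replicate 2, by 0.912 of the range, in the library with the fewest reads. *Ide* measured 127 CPM in mutant-labelled replicate 2, by 0.913 of the range. The values of *Nppa* and *Nppb* in the mutant-labelled group did not pass, since in each case 2 libraries were low together.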

How the results depend on the processing

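The log2 differences of the 5 genes kept their direction under every alternative run. Set against the cardiomyocyte markers, *Gja1* had -0.182 in place of -0.494 and *Gjc1* 0.352 in place of 0.040. That scaling lifts every gene alike, and it also turned the medians of the intercalated disc list from -0.14 to 0.17, of cardiac regulators from -0.10 to 0.22, of atrial myocardium from -0.13 to 0.19 and of endothelium and endocardium from -0.08 to 0.23. Leaving out each library in turn gave ranges of -2.805 to -1.423 for *Nppa*, -1.522 to -0.948 for *Nppb*, -0.572 to -0.367 for *Gja1*, -0.700 to -0.368 for *Gja5* and 0.019 to 0.065 for *Gjc1*. Under every alternative run with limma except the cardiomyocyte scaling, for which genes were not counted, 0 genes passed an adjusted p of 0.05. Genes with an unadjusted p under 0.05, counted under the same settings, numbered 1763 in the main fit. They numbered 1121 without control replicate 2, 1172 without control replicate 3 and 2163, the highest, without control replicate 4. The cause was not tested.

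With the replicate number as a replicate block, 0 genes passed and 1304 had an unadjusted p under 0.05. Same-numbered libraries showed no clear shared deviation (r = 0.035, -0.185, 0.027 and -0.045 across genes, each below the highest r with another number). A single r usually falls below the highest of several, so this check cannot exclude that the numbers pair the samples. The planned count tests on reads recovered from CPM were not run. The variance models and the cardiomyocyte scaling were added after seeing the data.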
